A study of Mus musculus with 6 samples.

Results

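The 38 genes of the aminoacyl-tRNA synthetases were examined in hypoxia-treated and normoxic GC-2spd cells. The members were found by their symbols: the letter of an amino acid followed by "ars", with or without l, 1 or 2, together with Eprs, Farsa and Farsb. All 38 were found among the 43412 annotated genes of the series and all passed the filter on low values. Of these, 19 encode cytosolic enzymes, 17 encode mitochondrial enzymes and 2, Gars and Kars, each supply both compartments. Tarsl2 carries a 2 in its symbol but is a paralog of the cytosolic threonyl-tRNA synthetase, and it was counted as cytosolic.

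GC-2spd is a mouse testis cell line, made by immortalizing germ cells at the spermatocyte stage, and its strain background is given as C57BL/6J. The hypoxia-treated group comprised 3 poly(A) RNA libraries of cells kept at 1% oxygen, and the normoxic group comprised 3 libraries of cells kept at 21% oxygen. The 48 h of exposure are taken from the description of the same hypoxia model in other assays. The study describes its experiments in general as repeated, but does not say for these libraries whether replicates were separate cultures. The p-values then measure only the spread between these libraries, which may be technical. Of 14 markers of germ cells none reached a mean of 1 TPM and 6 were listed at 0 in all 6 libraries, whereas the fibroblast and myoid marker Col1a1 averaged 1440.4 TPM. The summed level of the germ cell markers was 0.251 to 0.827 TPM in hypoxia-treated cells and 0.921 to 1.21 TPM in normoxic cells. For 8 fibroblast and myoid markers, of which Thy1 was listed at 0, it was 2723 to 2977 TPM in hypoxia-treated cells and 2289 to 2359 TPM in normoxic cells. Of 6 Leydig cell markers, Hsd3b1 and Lhcgr were listed at 0, and the sum was 7.17 to 10.6 TPM in hypoxia-treated cells and 3.61 to 6.88 TPM in normoxic cells. Of 4 macrophage markers, Ptprc and Adgre1 were listed at 0, and the sum was 10.5 to 11.5 TPM in hypoxia-treated cells and 7.20 to 8.11 TPM in normoxic cells. Sertoli cell markers, of which Fshr was listed at 0 and Gata4 was the highest, summed to 44.7 to 56.4 TPM in hypoxia-treated cells and 42.4 to 54.0 TPM in normoxic cells. Endothelial markers, of which Cdh5 was listed at 0, summed to 0.279 to 1.501 TPM in hypoxia-treated cells and 0.896 to 2.11 TPM in normoxic cells. The part of these markers in the results was not tested.

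An aminoacyl-tRNA synthetase joins an amino acid to the tRNA that reads its codons, and this charged tRNA is what the ribosome uses. The cytosol and the mitochondrion mostly have separate enzymes, all encoded in the nucleus, and the mitochondrial enzymes charge the tRNAs that are transcribed from mitochondrial DNA. Several cytosolic enzymes are held together with scaffold proteins in the multisynthetase complex. Many cytosolic synthetase genes are known targets of ATF4, the transcription factor of the integrated stress response. The study asked how hypoxia alters RNA modification in these cells.

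Aligned bases, which were estimated and not counted, came to 5.80, 6.72 and 5.92 gigabases in the hypoxia-treated libraries. In the normoxic libraries they came to 6.61, 5.75 and 6.20 gigabases. Pearson's r across genes was 0.988 to 0.989 between libraries of a group and 0.951 to 0.953 between groups, and genes are not independent replicates. TPM (transcript abundance scaled for transcript length and library size) of 13749 genes with a mean of at least 1 was compared by limma on log2(TPM + 1), with p-values adjusted over all of them by the Benjamini-Hochberg method at a threshold of 0.05. Fold changes are on that scale, which understates the change of genes at a few TPM. TPM of the annotated genes summed to 948284, 959407 and 977044 in hypoxia-treated cells, against 981418, 972522 and 980491 in normoxic cells. The files hold no counts, so no counting interval is given.

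Transcripts of the synthetases were mostly less abundant in hypoxia-treated cells. Of the 38 genes, 27 fell, 2 rose and 9 did not pass the test. That is 71.1% lower and 5.26% higher, where 36.1% of all tested genes were lower and 17.9% were higher. The median log2 fold change was −0.47, against −0.13 for all tested genes. The groups did not overlap for 30 of the 38 members (78.9%), and they did not overlap for 62.4% of all tested genes. Together the members held 2380.2, 2421 and 2388 TPM in hypoxia-treated cells, against 3110.1, 3165 and 2989.5 TPM in normoxic cells. The sums of the 2 groups lie apart, and within each group they differ little. Mitochondrially encoded genes held 5.49% to 5.59% of TPM in hypoxia-treated cells and 9.25% to 9.29% in normoxic cells. Without them 28 members were lower and 2 higher. Leaving out the mitochondrially encoded genes also shifted the whole tested set downward. In that setting 5619 of 13845 genes were lower and 2092 higher, against 4970 and 2464 of 13749 in the main one. The median of the whole set moved from −0.13 to −0.19, and that of the members from −0.47 to −0.53. The count of 28 is therefore read only alongside that shift. In these bulk libraries fewer expressing cells and less RNA per cell cannot be told apart.

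In both compartments most genes fell. Of the 19 cytosolic genes 13 fell (68.4%) and 2 rose (10.5%), with a median log2 fold change of −0.46. Of the 17 mitochondrial genes 12 fell (70.6%) and none rose by limma (0 also at an unadjusted p under 0.05), with a median of −0.50. Nars2 passed as higher with quantile normalization. Of all tested genes 36.1% were lower and 17.9% higher, with a median of −0.13. Summed TPM of the cytosolic genes was 1795, 1825 and 1809 in hypoxia-treated cells, against 2292, 2318 and 2197 in normoxic cells. For the mitochondrial genes it was 262, 264 and 266 TPM in hypoxia-treated cells, against 381, 398 and 359 TPM in normoxic cells. Mitochondrial genes thus made up 11.0%, 10.9% and 11.1% of the summed synthetase TPM in hypoxia-treated cells, against 12.3%, 12.6% and 12.0% in normoxic cells. Scaling the libraries by their median ratio moved the median of all tested genes to 0.0014, and the medians were then −0.32 for cytosolic and −0.36 for mitochondrial genes.

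**Figure D1:**
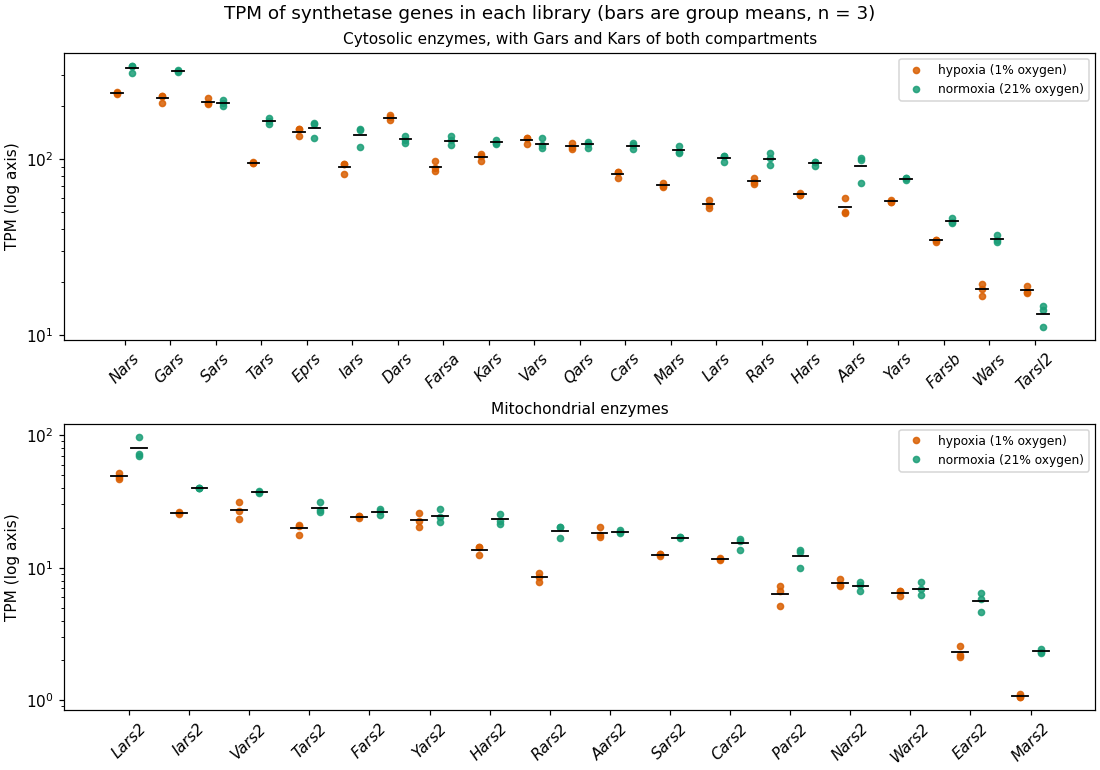
TPM (log axis) of 37 synthetase genes in each library, hypoxia-treated cells in orange and normoxic cells in green, with bars at the group means (n = 3). Nars is the highest gene in both groups (236 and 326 TPM) and Mars2 the lowest (1.07 and 2.34 TPM).

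For every amino acid compared, transcripts of the cytosolic gene were more abundant than those of its mitochondrial partner. Tarsl2, which was not paired, lay under Tars2, at 18.0 and 19.8 TPM in hypoxia-treated cells. In normoxic cells they had 13.2 and 28.4 TPM. Mean TPM of the cytosolic genes ran between 18.0 and 236 in hypoxia-treated cells and between 13.2 and 326 in normoxic cells. The mitochondrial genes ran between 1.07 and 48.9 TPM in hypoxia-treated cells and between 2.34 and 79.7 TPM in normoxic cells. Nars (asparagine), Gars (glycine) and Sars (serine) held the first 3 places in both groups. In normoxic cells Nars and Gars did not differ beyond their spread, at 326 ± 16.1 and 315 ± 3.84 TPM (SD, n = 3). Among mitochondrial genes Lars2 (leucine) was the highest in both groups and the nearest to the level of its cytosolic partner. The last place was held by Mars2 (methionine) and the place before it by Ears2 (glutamate).

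Of 13 cytosolic or dual synthetase genes known as ATF4 targets, 10 fell (76.9%) and none rose by limma (0 also at an unadjusted p under 0.05), with a median log2 fold change of −0.52. With median-ratio scaling Sars and Vars of this list passed as higher. The other 8 genes of the cytosol or both compartments had 5 lower (62.5%) and 2 higher (25.0%), with a median of −0.32. Of all tested genes 36.1% were lower and 17.9% higher, and the difference between the lists was not tested. Both lists were written with earlier results of these data known. RefSeq promoters (GRCm38.p6, the 250 bases before and 50 after the start site) were matched for 27 of the 38 members. TGATGNAA, the core of the element that ATF4 binds with its partners, was searched on both strands, and it was found in 5 of the 27, Aars, Gars, Iars, Tars and Yars. It was in the promoters of 4.51% of 27025 genes. All 5 are among the 7 matched ATF4 targets, and none of the 14 matched mitochondrial members and none of the other 6 matched members held it. The rest of the 13 ATF4 targets had no matched promoter and were not searched. The list is of known ATF4 targets, so matches within it are not independent of how the list was made. A match is a description of letters, not a binding site. The windows below give the match with 30 bases on either side, on the strand of the gene, with the match in capitals. Except in Yars the match lies on the opposite strand and is printed in reverse complement. All 5 genes are among the 10 of 13 ATF4 targets that fell in hypoxia-treated cells. Whether match and decrease are linked was not tested.
Aars, chr8:111033700-111033767: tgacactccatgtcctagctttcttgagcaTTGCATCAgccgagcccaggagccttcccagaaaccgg
Aars, chr8:111033821-111033888: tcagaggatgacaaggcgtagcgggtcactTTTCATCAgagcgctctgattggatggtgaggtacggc
Gars, chr6:55037941-55038008: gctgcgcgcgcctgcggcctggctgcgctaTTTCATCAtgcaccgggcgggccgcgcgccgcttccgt
Iars, chr13:49682107-49682174: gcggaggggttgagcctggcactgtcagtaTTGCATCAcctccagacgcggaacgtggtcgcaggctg
Tars, chr15:11399636-11399703: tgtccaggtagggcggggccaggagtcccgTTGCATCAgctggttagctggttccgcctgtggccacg
Yars, chr4:129189876-129189943: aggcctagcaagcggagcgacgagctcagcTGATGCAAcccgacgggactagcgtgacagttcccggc
Relative to the start site, the Gars match spans positions −30 to −23 and the Tars match −15 to −8. It spans bases 8 to 15 of the transcript in Iars and 4 to 11 in Yars. Aars holds a match at positions −112 to −105 and another at bases 10 to 17. These positions are from the RefSeq start. The loci as quantified begin before it for Aars (111033144), Iars (49682100) and Yars (129189760), so both Aars matches lie inside the quantified locus. CACGTG, the E-box bound by MYC and its relatives, was in the promoters of Aars, Ears2, Farsb, Iars and Tars, which is 18.5% of the matched members, against 8.09% of all genes. None of the printed windows holds it. ACGTG, the core bound by hypoxia-inducible factors and contained in CACGTG, was in 10 of the 27 (37.0%), against 21.8% of all genes.

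Among the genes with such a window, Tars, the cytosolic threonyl-tRNA synthetase (ENSMUSG00000022241, chromosome 15 of mm10 from 11383663 to 11399658, minus strand), had 95.4, 95.3 and 94.3 TPM in hypoxia-treated cells, against 169.8, 165 and 157 TPM in normoxic cells. The groups lay far apart and the hypoxia-treated libraries were nearly equal (log2 fold change −0.78, standard error 0.04, adjusted p = 2.28e-05 from limma). Aars, which charges tRNA with alanine and edits its own errors, had 60.2, 49.0 and 50.2 TPM in hypoxia-treated cells, against 73.4, 101 and 97.9 TPM in normoxic cells. It fell (log2 fold change −0.75, standard error 0.14, adjusted p = 0.00347 from limma), and its normoxic libraries were uneven, the first lying well under the other two. Gars, which charges glycine in both compartments, had 226, 226 and 208 TPM in hypoxia-treated cells, against 314, 319.8 and 313 TPM in normoxic cells. This gene fell without overlap (log2 fold change −0.52, standard error 0.04, adjusted p = 0.000127 from limma). Yars, the tyrosyl-tRNA synthetase, had 56.6, 58.6 and 56.9 TPM in hypoxia-treated cells, against 78.2, 75.6 and 77.8 TPM in normoxic cells, which is a smaller decrease (log2 fold change −0.42, standard error 0.04, adjusted p = 0.00026 from limma). The 3′ end of Yars overlaps C77080 on the opposite strand by 30 bases.

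Of the other ATF4 targets of the cytosol, not all of which had a matched promoter, Wars had the largest decrease among all cytosolic members. With quantile normalization Lars fell more, with a log2 fold change of −0.78 against −0.74 for Wars. Wars encodes the tryptophanyl-tRNA synthetase, which is known to be induced by interferon γ (ENSMUSG00000021266, chromosome 12 of mm10 from 108860030 to 108894174, minus strand). It had 19.6, 18.4 and 16.8 TPM in hypoxia-treated cells, against 37.1, 34.7 and 33.6 TPM in normoxic cells (log2 fold change −0.91, standard error 0.08, adjusted p = 0.000111 from limma). Every hypoxia-treated library was below every normoxic library. Nars, the asparaginyl-tRNA synthetase and the most abundant member, had 233, 239 and 237 TPM in hypoxia-treated cells, against 336, 334 and 307 TPM in normoxic cells (log2 fold change −0.46, standard error 0.05, adjusted p = 0.000228 from limma). Cars, the cysteinyl-tRNA synthetase, had 78.1, 84.6 and 84.8 TPM in hypoxia-treated cells, against 119.7, 124 and 113 TPM in normoxic cells (log2 fold change −0.52, standard error 0.05, adjusted p = 0.000289 from limma). Both fell by a similar step on the log2 scale. Sars (serine) and Vars (valine), on the same list, did not pass the test. Sars had 204, 221 and 208 TPM in hypoxia-treated cells, against 206, 215 and 199.9 TPM in normoxic cells, and the 95% interval of its log2 fold change was −0.09 to 0.14. Vars had 121, 131 and 131 TPM in hypoxia-treated cells, against 115, 131 and 119 TPM in normoxic cells, with an interval of −0.08 to 0.21. With median-ratio scaling both passed as higher, Sars with a log2 fold change of 0.17 (adjusted p = 0.0293 from limma) and Vars with 0.21 (adjusted p = 0.0292 from limma).

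**Figure D2:**
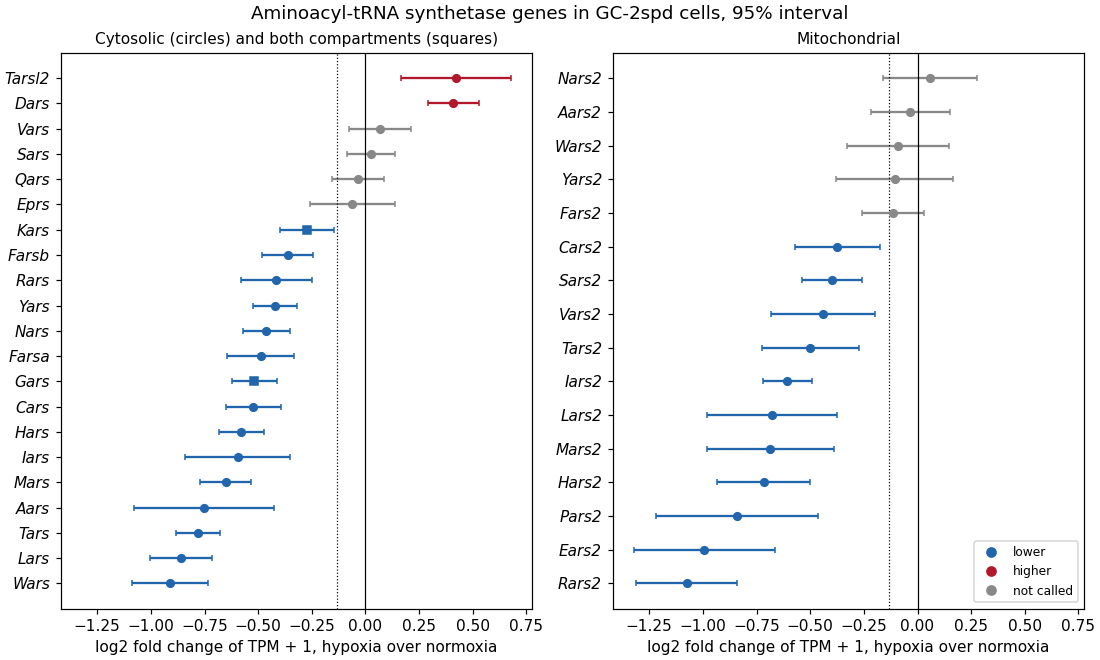
Log2 fold change of TPM + 1 (hypoxia over normoxia) of 37 synthetase genes, each with its 95% interval from limma, coloured by call. The dotted line is the median of all tested genes at −0.13, and only Tarsl2 (0.42) and Dars (0.41) were called higher.

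The 8 synthetases listed for the multisynthetase complex did not move together. Of these 5 fell (Lars, Mars, Iars, Rars and Kars), Dars rose, and Eprs and Qars did not pass the test. That is 62.5% lower and 12.5% higher, against 36.1% and 17.9% of all tested genes. For the cytosolic or dual genes outside the complex it was 76.9% lower and 7.69% higher. The difference between these lists was not tested. Lars, the leucyl-tRNA synthetase, which also senses leucine for mTORC1, had 54.5, 58.7 and 52.5 TPM in hypoxia-treated cells, against 103, 104 and 95.7 TPM in normoxic cells. Mars, the methionyl-tRNA synthetase, had 69.6, 69.8 and 72.8 TPM in hypoxia-treated cells, against 118, 108 and 109 TPM in normoxic cells. Both fell, with log2 fold changes of −0.86 (adjusted p = 5.60e-05 from limma) and −0.65 (adjusted p = 8.45e-05 from limma). The last 68 bases of Mars overlap Ddit3 on the opposite strand, and the sources used here do not give whether reads were assigned by strand, so such overlaps leave both genes uncertain. Ddit3, a stress response factor, had 79.3, 94.5 and 96.4 TPM in hypoxia-treated cells, against 86.7, 68.0 and 71.8 TPM in normoxic cells and was not called (adjusted p = 0.0954 from limma).

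Iars, the isoleucyl-tRNA synthetase, had 93.3, 82.0 and 94.0 TPM in hypoxia-treated cells, against 147, 146 and 117 TPM in normoxic cells (log2 fold change −0.60, standard error 0.10, adjusted p = 0.00271 from limma). Rars, the arginyl-tRNA synthetase, had 71.7, 74.4 and 78.3 TPM in hypoxia-treated cells, against 92.1, 101 and 108 TPM in normoxic cells (log2 fold change −0.42, standard error 0.07, adjusted p = 0.00231 from limma). Both fell, and the normoxic libraries of Iars were the more scattered. Kars charges lysine in both compartments and had 96.9, 107 and 104 TPM in hypoxia-treated cells, against 123, 129 and 121 TPM in normoxic cells. It was called lower (log2 fold change −0.27, standard error 0.05, adjusted p = 0.00447 from limma), but with median-ratio scaling its log2 fold change was −0.13 and the call was lost (adjusted p = 0.0769 from limma).

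Dars, the aspartyl-tRNA synthetase (ENSMUSG00000026356, chromosome 1 of mm10 from 128363707 to 128417368, minus strand), was the higher member of the complex. It had 165, 176 and 173 TPM in hypoxia-treated cells, against 136, 123 and 128 TPM in normoxic cells. All hypoxia-treated libraries were above all normoxic libraries, and the mean was higher by 32.9% (log2 fold change 0.41, standard error 0.05, adjusted p = 0.000598 from limma). Eprs, a fusion of the glutamyl- and prolyl-tRNA synthetases, had 147, 148 and 134 TPM in hypoxia-treated cells, against 157, 160.2 and 132 TPM in normoxic cells. Its groups overlapped, and the interval of its log2 fold change was −0.26 to 0.14.

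Qars, the glutaminyl-tRNA synthetase (ENSMUSG00000032604, chromosome 9 of mm10 from 108507713 to 108515941, plus strand), was listed with an additional row in 1 hypoxia-treated library. At its own locus it had 113, 116 and 124 TPM in hypoxia-treated cells, against 116, 122 and 125 TPM in normoxic cells. These values overlapped and did not pass the test (adjusted p = 0.573 from limma, interval of the log2 fold change −0.16 to 0.08). In the first hypoxia-treated library a further row with the Qars ID held 69.3 TPM at chromosome 9 from 108556218 to 108559568. That stretch lies inside Qrich1, the next gene downstream, whose annotated start is 864 bases past the end of Qars. Qrich1 itself had 63.9, 53.7 and 64.3 TPM in hypoxia-treated cells, against 59.9, 56.0 and 65.8 TPM in normoxic cells. The off-locus row was left out. When it was added, an alternative chosen after seeing the data, the log2 fold change of Qars turned to 0.19, still without a call (adjusted p = 0.351 from limma).

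The remaining cytosolic genes are on neither of these lists. Hars, the histidyl-tRNA synthetase, had 62.5, 62.1 and 64.2 TPM in hypoxia-treated cells, against 96.1, 95.9 and 91.4 TPM in normoxic cells (log2 fold change −0.58, standard error 0.04, adjusted p = 7.62e-05 from limma). Farsa and Farsb encode the α and β subunits of the phenylalanyl-tRNA synthetase. Farsa had 96.6, 89.0 and 85.3 TPM in hypoxia-treated cells, against 134, 119.5 and 128 TPM in normoxic cells and Farsb had 34.9, 34.6 and 33.9 TPM in hypoxia-treated cells, against 46.3, 44.1 and 43.5 TPM in normoxic cells. Both subunits fell, with log2 fold changes of −0.49 (adjusted p = 0.000864 from limma) and −0.36 (adjusted p = 0.000969 from limma). Tarsl2, the paralog of Tars, moved the other way from Tars. It had 17.4, 17.5 and 19.0 TPM in hypoxia-treated cells, against 11.2, 14.7 and 13.9 TPM in normoxic cells (log2 fold change 0.42, standard error 0.11, adjusted p = 0.0144 from limma). It rose, at a level far under that of Tars in both groups, and its last 923 bases overlap Tm2d3 on the same strand.

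Among the mitochondrial genes, Rars2 and Ears2 fell. Rars2, which charges arginine (ENSMUSG00000028292, chromosome 4 of mm10 from 34614957 to 34660167, plus strand), had 7.80, 9.14 and 8.50 TPM in hypoxia-treated cells, against 20.1, 20.2 and 16.8 TPM in normoxic cells (log2 fold change −1.08, standard error 0.10, adjusted p = 0.000173 from limma). Ears2 charges mitochondrial tRNAs with glutamate, including tRNA-Gln, which is then converted by an amidotransferase. It had 2.14, 2.59 and 2.20 TPM in hypoxia-treated cells, against 5.79, 6.43 and 4.63 TPM in normoxic cells (log2 fold change −0.99, standard error 0.14, adjusted p = 0.00103 from limma). In both genes the hypoxia-treated libraries lay well under the normoxic ones. Ears2 overlaps Ubfd1 on the opposite strand by 89 bases, and Ubfd1 had 25.5 to 27.2 TPM in hypoxia-treated cells and 26.2 to 28.6 TPM in normoxic cells.

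Pars2, the prolyl enzyme, had 5.17, 6.67 and 7.31 TPM in hypoxia-treated cells, against 13.6, 9.90 and 13.2 TPM in normoxic cells (log2 fold change −0.84, standard error 0.16, adjusted p = 0.00401 from limma). Mars2, the methionyl enzyme, had 1.05, 1.11 and 1.05 TPM in hypoxia-treated cells, against 2.44, 2.26 and 2.31 TPM in normoxic cells (log2 fold change −0.69, standard error 0.12, adjusted p = 0.00336 from limma). The pseudocount of 1 holds back the fold change of Mars2, whose mean TPM fell by 54.1%. Lars2, the leucyl enzyme (ENSMUSG00000035202, chromosome 9 of mm10 from 123366940 to 123462664, plus strand), had 52.0, 48.2 and 46.7 TPM in hypoxia-treated cells, against 71.6, 97.5 and 70.1 TPM in normoxic cells (log2 fold change −0.68, standard error 0.13, adjusted p = 0.00406 from limma). The second normoxic library stands above the others for Lars2, and the groups do not overlap.

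Iars2, the isoleucyl enzyme, had 25.4, 26.2 and 26.0 TPM in hypoxia-treated cells, against 39.8, 39.7 and 40.1 TPM in normoxic cells (log2 fold change −0.61, standard error 0.05, adjusted p = 9.21e-05 from limma). Its libraries differed little within a group. It shares 2034 bases with Rab3gap2 on the opposite strand, which rose to 32.0, 34.9 and 37.1 TPM in hypoxia-treated cells, against 21.2, 23.7 and 21.6 TPM in normoxic cells. Tars2 (threonine) had 20.9, 20.8 and 17.7 TPM in hypoxia-treated cells, against 31.4, 27.4 and 26.4 TPM in normoxic cells and Vars2 (valine) had 23.4, 31.3 and 27.0 TPM in hypoxia-treated cells, against 37.7, 36.3 and 37.0 TPM in normoxic cells. Both fell, with log2 fold changes of −0.50 (adjusted p = 0.00416 from limma) and −0.44 (adjusted p = 0.00974 from limma).

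The smallest called decreases of the mitochondrial enzymes were those of Sars2 and Cars2. Sars2 (serine) had 12.6, 12.3 and 12.8 TPM in hypoxia-treated cells, against 16.7, 17.1 and 16.9 TPM in normoxic cells (log2 fold change −0.40, standard error 0.06, adjusted p = 0.00143 from limma). The start of Sars2 lies 147 bases from that of Mrps12, a mitochondrial ribosomal protein gene on the opposite strand, which also fell (log2 fold change −0.56, adjusted p = 0.00825 from limma). Cars2 (cysteine) had 11.6, 11.4 and 11.8 TPM in hypoxia-treated cells, against 16.4, 16.0 and 13.7 TPM in normoxic cells (log2 fold change −0.37, standard error 0.08, adjusted p = 0.00873 from limma). Cars2 lost its call after median-ratio scaling (adjusted p = 0.0501 from limma) and after quantile normalization (adjusted p = 0.115 from limma), and 940 bases at its 3′ end, as the files place it, overlap Naxd on the opposite strand.

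The 5 other mitochondrial genes, Aars2, Fars2, Nars2, Wars2 and Yars2, did not pass the test. Aars2 (alanine) had 17.5, 17.1 and 20.1 TPM in hypoxia-treated cells, against 18.5, 18.2 and 19.2 TPM in normoxic cells, with an interval of the log2 fold change of −0.22 to 0.15. Nars2 (asparagine) had 8.17, 7.33 and 7.41 TPM in hypoxia-treated cells, against 7.81, 7.43 and 6.68 TPM in normoxic cells, with an interval of −0.16 to 0.28. These groups overlapped. Wars2 (tryptophan) had 6.09, 6.63 and 6.68 TPM in hypoxia-treated cells, against 6.92, 6.24 and 7.75 TPM in normoxic cells, with an interval of −0.33 to 0.15. Yars2 (tyrosine) had 22.5, 20.4 and 25.8 TPM in hypoxia-treated cells, against 24.2, 28.0 and 22.0 TPM in normoxic cells, with an interval of −0.38 to 0.17. Both again overlapped. Fars2 (phenylalanine) had 24.4, 23.9 and 24.7 TPM in hypoxia-treated cells, against 27.7, 26.7 and 24.9 TPM in normoxic cells, groups that lie side by side without overlap (adjusted p = 0.155 from limma, interval −0.26 to 0.03). Fars2 passed as lower with FPKM (adjusted p = 0.0474 from limma) and with mitochondrially encoded genes left out (adjusted p = 0.0496 from limma), and Nars2 passed as higher with quantile normalization (log2 fold change 0.28, adjusted p = 0.0451 from limma).

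Hars and Hars2 are neighbours in head-to-head order on chromosome 18 and their annotated 5′ ends overlap by 198 bases. Hars2, the mitochondrial histidyl enzyme, had 14.2, 12.4 and 14.4 TPM in hypoxia-treated cells, against 25.4, 21.4 and 22.5 TPM in normoxic cells. It fell (log2 fold change −0.72, standard error 0.09, adjusted p = 0.0007 from limma), as did Hars. The log2 ratio of Hars to Hars2 TPM was 2.13, 2.33 and 2.15 in hypoxia-treated cells, against 1.92, 2.16 and 2.02 in normoxic cells, and these values overlap.

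The enzymes for the same amino acid in the 2 compartments were set against each other as the log2 ratio of cytosolic to mitochondrial TPM within each library, which does not change when a library is multiplied by a common factor. Of 18 such pairs, 13 (72.2%) did not overlap between the groups, 7 with a higher and 6 with a lower ratio in hypoxia-treated cells. Eprs stands in the pairs for both glutamate and proline, and Fars2 is paired with both Farsa and Farsb. These pairs share a gene, are all among the 13, and are not independent entries. Groups did not overlap for 62.4% of all tested single genes, and the share for ratios of other gene pairs was not computed, so nothing particular to these pairs is read from the count. An exact permutation test (2-sided) of 3 against 3 libraries cannot go below 0.10, and all 13 reached that value (adjusted p = 0.138 over the 18 pairs), so none passes the threshold.

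The ratio was higher in hypoxia-treated cells for glutamate (Eprs to Ears2, 62.0 in hypoxia-treated cells and 26.8 in normoxic cells), proline (Eprs to Pars2, 22.6 in hypoxia-treated cells and 12.3 in normoxic cells) and arginine (Rars to Rars2, 8.83 in hypoxia-treated cells and 5.28 in normoxic cells). The mitochondrial genes of these pairs fell, whereas Eprs did not pass the test and Rars fell by 0.42 on the log2 scale. The pairs for valine, methionine and serine were higher by 0.52, 0.46 and 0.45 on the log2 scale. In the other direction the ratio for tryptophan (Wars to Wars2) was 2.82 in hypoxia-treated cells and 5.06 in normoxic cells, and that for alanine (Aars to Aars2) was 2.91 in hypoxia-treated cells and 4.81 in normoxic cells. Here the cytosolic gene fell and the mitochondrial gene did not pass the test. The log2 ratio differed by −0.53 for asparagine and −0.27 for threonine, and by −0.37 for Farsa and −0.25 for Farsb, each with Fars2. Groups overlapped for cysteine, histidine, isoleucine, leucine and tyrosine, and for isoleucine the ratio was 3.47 in hypoxia-treated cells and 3.41 in normoxic cells.

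**Figure D3:**
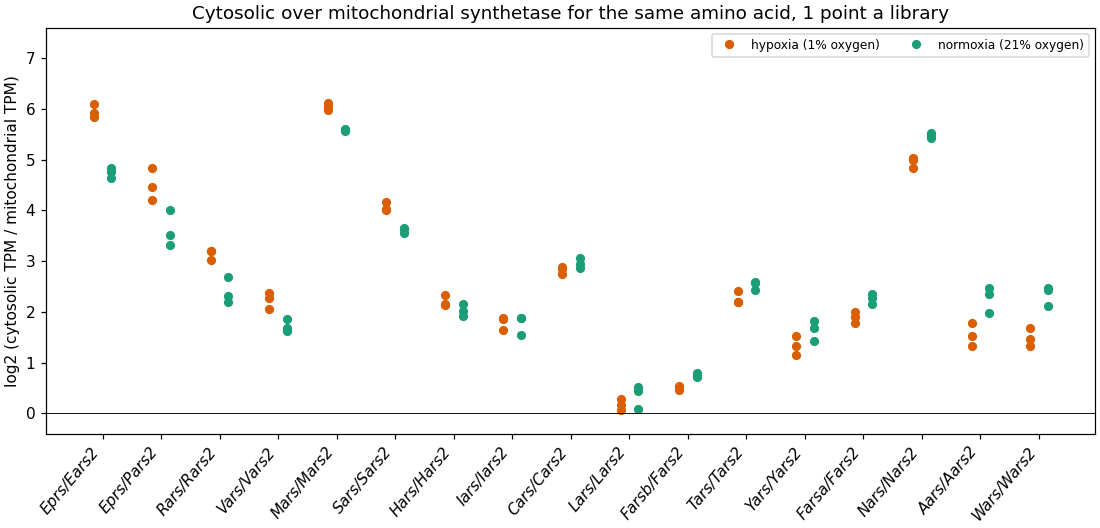
Log2 ratio of cytosolic to mitochondrial TPM for the same amino acid, 1 point a library, for 17 of the 18 pairs, hypoxia-treated cells in orange and normoxic cells in green. The pairs plotted run from an increase of 1.21 (Eprs/Ears2) to a decrease, with a difference of −0.84 (Wars/Wars2).

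By structural class, 14 of 18 class I enzymes fell and none rose by limma (0 also at an unadjusted p under 0.05, but Vars rose with median-ratio scaling), with a median log2 fold change of −0.56. Of 19 class II enzymes 13 fell and 2 rose, with a median of −0.46. Eprs holds a part of each class and was counted in neither. These shares of lower genes, 77.8% and 68.4%, were both above the 36.1% of all tested genes, and the difference between the classes was not tested.

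Genes that work with the synthetases moved in both directions. Of 21 genes on this list 10 fell, 4 rose and 7 did not pass the test, with a median log2 fold change of −0.30. The share of lower genes was 47.6%, against 36.1% of all tested genes, and that of higher genes was 19.0%, against 17.9%. The 3 scaffold proteins of the multisynthetase complex split. Aimp1 had 156, 177 and 170.3 TPM in hypoxia-treated cells, against 136, 130.3 and 129 TPM in normoxic cells and Aimp2 had 68.4, 63.0 and 60.7 TPM in hypoxia-treated cells, against 42.1, 46.7 and 43.2 TPM in normoxic cells. Both rose, with log2 fold changes of 0.34 (adjusted p = 0.00213 from limma) and 0.53 (adjusted p = 0.000622 from limma). Eef1e1, the third scaffold protein, had 27.3, 31.5 and 32.6 TPM in hypoxia-treated cells, against 53.6, 50.1 and 53.5 TPM in normoxic cells. It fell (log2 fold change −0.77, standard error 0.08, adjusted p = 0.000257 from limma). None of the 3 scaffold genes had groups that overlapped. Groups also did not overlap for 71.4% of the whole list and for 62.4% of all tested genes.

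In the mitochondrion, glutamyl-tRNA-Gln is converted by an amidotransferase of 3 subunits. Qrsl1 had 15.1, 13.4 and 12.8 TPM in hypoxia-treated cells, against 20.2, 17.9 and 18.2 TPM in normoxic cells and Gatc had 20.3, 22.7 and 20.5 TPM in hypoxia-treated cells, against 30.8, 31.3 and 30.04 TPM in normoxic cells. These subunits fell with Ears2, with log2 fold changes of −0.42 (adjusted p = 0.00567 from limma) and −0.52 (adjusted p = 0.000601 from limma), and Qrsl1 lost its call with quantile normalization (adjusted p = 0.0675 from limma). The subunit gene Gatb had 4.59, 4.58 and 5.28 TPM in hypoxia-treated cells, against 5.13, 6.07 and 7.73 TPM in normoxic cells and was not called (adjusted p = 0.108 from limma), but passed as lower without normoxia replicate 1 (0.0441). Mtfmt, which formylates the initiator methionyl-tRNA, fell with a log2 change of −0.35 (adjusted p = 0.00632 from limma), a call that was lost with quantile normalization (adjusted p = 0.118 from limma).

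Charged tRNA is delivered to the ribosome by EF-1α in the cytosol and by EF-Tu in the mitochondrion. Eef1a1 had 15032, 12140.3 and 15620.2 TPM in hypoxia-treated cells, against 11531, 11844 and 10202.5 TPM in normoxic cells. It was called higher by a small margin (log2 fold change 0.34, adjusted p = 0.0274 from limma), and the call was lost without hypoxia replicate 1 (log2 fold change 0.30, adjusted p = 0.0834) or 3 (0.27, 0.0820), or without normoxia replicate 1 (0.37, 0.0537) or 3 (0.28, 0.0786). With the fold change kept at 0.34, it was also lost when genes of all levels were tested (adjusted p = 0.164), with no variance trend (0.05003) and with the replicate block (0.0560). With FPKM (0.29, 0.0539) and without mitochondrially encoded genes (0.29, 0.0515) it was lost by a narrow margin. Quantile normalization gave Eef1a1 the same value in all libraries and so gives no test of it. Tufm, the gene of mitochondrial EF-Tu, had 93.9, 92.9 and 93.3 TPM in hypoxia-treated cells, against 108, 107 and 109 TPM in normoxic cells. It was lower (log2 fold change −0.21, standard error 0.04, adjusted p = 0.00314 from limma), a call lost with median-ratio scaling (adjusted p = 0.204 from limma). Tsfm, its nucleotide exchange factor, had 22.2, 18.8 and 24.8 TPM in hypoxia-treated cells, against 34.8, 37.6 and 37.1 TPM in normoxic cells (log2 fold change −0.72, standard error 0.10, adjusted p = 0.00109 from limma). The exchange subunit Eef1g rose with a log2 fold change of 0.26 (adjusted p = 0.0066 from limma), which was lost with quantile normalization (0.256). Eef1d had 218, 249 and 109 TPM in hypoxia-treated cells, against 269, 99.7 and 218 TPM in normoxic cells, which scattered within both groups (interval of the log2 fold change −1.03 to 1.04).

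Of the other genes on the list, Xpot, the exporter of tRNA from the nucleus, had 38.8, 38.8 and 39.1 TPM in hypoxia-treated cells, against 63.0, 60.8 and 57.6 TPM in normoxic cells and fell (log2 fold change −0.62, standard error 0.05, adjusted p = 0.000107 from limma). Trnt1, which adds the CCA end to which amino acids are joined, had 39.1, 39.5 and 37.8 TPM in hypoxia-treated cells, against 49.6, 47.3 and 52.2 TPM in normoxic cells and fell (log2 fold change −0.35, standard error 0.06, adjusted p = 0.00179 from limma). Aarsd1, an editor of mischarged tRNA-Ala, fell with a log2 change of −0.41 (adjusted p = 0.00157 from limma). Dtd2, another editor, was lower with −0.48 (adjusted p = 0.0141 from limma), a call lost with either scaling (adjusted p = 0.0590 after median-ratio scaling and 0.119 after quantile normalization, both from limma). The editing genes Dtd1 and Prorsd1, the selenocysteine genes Sepsecs and Pstk, and Eef1b2 were not called. Prorsd1 passed as lower with FPKM (adjusted p = 0.0398 from limma), without mitochondrially encoded genes (0.0392) and without normoxia replicate 2 (0.0489), and Eef1b2 passed as higher with median-ratio scaling (0.0156).

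**Figure D4:**
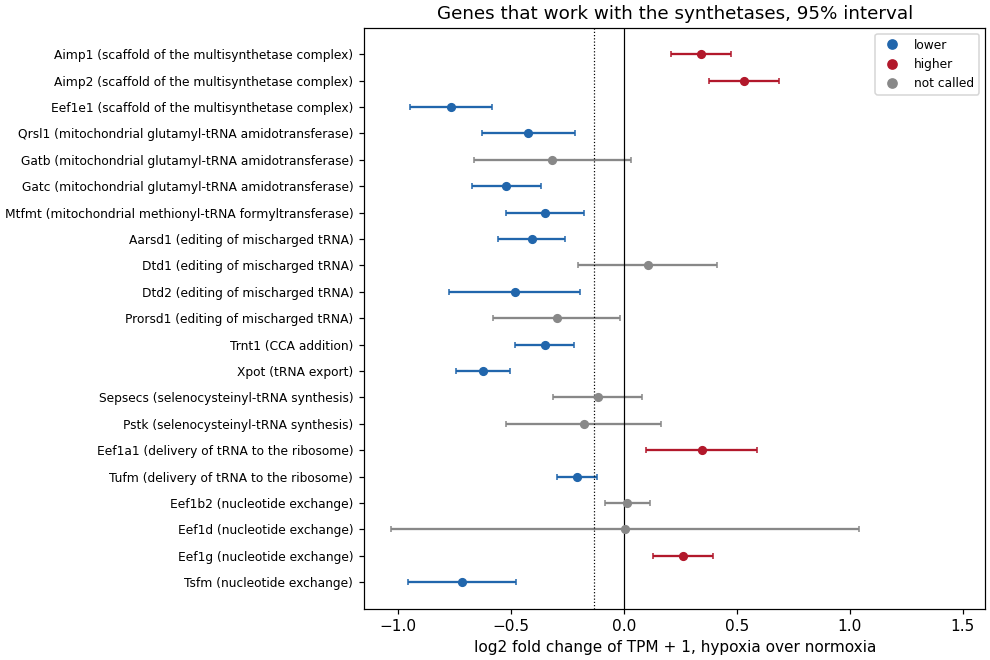
Log2 fold change of TPM + 1 (hypoxia over normoxia) with its 95% interval from limma for 21 genes that work with the synthetases, with their roles in parentheses. The scaffold genes Aimp1 (0.34) and Aimp2 (0.53) lie right of 0 and Eef1e1 (−0.77) lies left of it, and the dotted line is the median of all tested genes.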

How the data were processed

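Poly(A) RNA of 6 GC-2spd libraries was sequenced in pairs on an Illumina NovaSeq. Per the labels, the authors' tools were Cutadapt for filtering, HISAT2 for alignment and StringTie for gene abundance, with mm10 as build. Versions, annotation release and strand setting are not given in the sources used here. Deposited FPKM values, which correct for fragment number and gene length, were an alternative. Deposited coverage (mean depth over a gene) served only to estimate aligned bases, from the largest ratio of coverage to FPKM among the annotated genes of a library. The deposited TPM column was handled as a score, since it lists assembled loci, which carry the whole library, and annotated genes again. The design had assumed an ordinary TPM table. Only annotated genes were used, without rescaling. The authors' own screen used a tool made for counts, whose input is not given in the sources used here, and limma on log2(TPM + 1) was used because the files hold no counts.

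Gene IDs (43432) were named from GENCODE M21 and values of IDs with the same symbol were summed, which left 43412 genes. Rows of a repeated ID outside its annotated locus (1 to 3 per library) were left out. R 4.3.3, limma 3.58.1 (empirical Bayes with a variance trend, 2-sided), a mean TPM of at least 1, a pseudocount of 1 and a threshold of 0.05 were used, and the steps were tested on simulated data. Members and gene lists were chosen with earlier results of these data known. Members are named by rule, except that the values of 1 member and its pair are not reported here, although it stays in the counts, medians and sums. All genes on the list of partners may be named. Alternatives were a pseudocount of 0.1, no filter, a filter of 5 TPM, FPKM, median-ratio scaling, quantile normalization, no mitochondrially encoded genes, no variance trend, a replicate block, each library left out and, after seeing the data, off-locus rows summed. The number of libraries, 3 per group, limits the precision.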

Additional observations from a re-analysis of the deposited data

How the results depend on the processing

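Under the 16 alternatives, 27 of the 29 called synthetase genes kept their call and direction wherever they were tested, the exceptions being Kars and Cars2 above. Mars2 was not tested with FPKM, and neither Mars2 nor Ears2 was tested with the filter of 5 TPM. Leaving out each library in turn gave 27 lower and 2 higher members each time, and medians from −0.51 to −0.44 for all members, −0.48 to −0.44 for cytosolic, −0.55 to −0.43 for mitochondrial and −0.33 to −0.20 for partner genes. The number of pairs without overlap was 13 to 16 without single libraries. With median-ratio scaling 25 members were lower and 4 higher, all 4 of them cytosolic, and the medians were −0.33 for all members, −0.32 for cytosolic, −0.36 for mitochondrial and −0.16 for partner genes. With quantile normalization 26 were lower and 3 higher, 1 of them mitochondrial, with medians of −0.33 for mitochondrial and −0.10 for partner genes, of which 2 were higher. Both settings centre the median of all genes near 0, and all genes then split into 3603 higher and 3622 lower, or 3575 higher and 3638 lower, in place of 2464 and 4970. Whether the same replicate number pairs the samples is not known. Deviations of same-numbered libraries correlated at 0.03, 0.03 and 0.01, and those of differently numbered libraries at −0.05 to 0.03. Such values cannot show whether libraries were handled together. With the replicate number as a block, 27 members were lower and 2 higher, and 4674 of all tested genes were lower and 2282 higher. Aligned bases give no counting error, so the depth behind the low genes Mars2 and Ears2 is unknown.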
